A study of Mus musculus with 9 samples.

Results

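Most of the 33 genes described here encode enzymes, transporters or structural proteins of the intestinal brush border. That membrane digests sugars and peptides and takes up the products. The set also holds 3 basolateral amino acid transporters. The genes were chosen by symbol, as brush border hydrolases, peptide and amino acid transporters and microvillus proteins. All 33 symbols were among the 55341 genes counted, and all 33 passed the low-count filter that left 16250 genes for testing. RNA was measured in isolated small-intestinal crypts of male C57BL/6 mice aged 8 to 12 weeks, with 2 ng of RNA per Smart-seq2 library (full-length copies of polyadenylated RNA, without strand). Villin KO (2 libraries) and Villin WT (3 libraries) came from the Villin CreERT2 line after tamoxifen. AhCre KO (2 libraries) and AhCre WT (2 libraries) came from the AhCre line after BNF, an inducer of the xenobiotic response. The mice labelled WT also received the inducer, and the labels do not say whether they carried Cre. The sample titles place collection at 15 days after the inducer, whereas the design text and a second label line give 7 days. A label line of the Villin samples also names BNF where their titles name tamoxifen. KO denotes a conditional knockout of Pcgf6 (cKO in the labels), a Polycomb group RING finger protein of a repressive chromatin complex. Villin CreERT2 is driven by regulatory sequence of Vil1, which is itself among the 33 genes, and AhCre by the Cyp1a1 promoter. Driver, inducer and any batch cannot be told apart here. The labels do not state that replicates are separate animals; a p-value here therefore sets groups against the spread among these libraries, which may be technical.

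Absorptive enterocytes are produced in the crypt and mature as they move onto the villus. Their apical membrane is folded into microvilli, held up by actin bundles and linked at the tips by protocadherins. Disaccharidases and peptidases anchored in that membrane complete digestion, and apical carriers then take up small peptides and amino acids. Basolateral exchangers, paired with a shared heavy chain, pass amino acids on to the blood. Genes of this programme are known as markers of enterocyte differentiation.

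Total counts were 6455098 to 8339149 in the 5 Villin libraries and 9263993 to 12377921 in the 4 AhCre libraries. Levels are given as CPM, counts scaled to library size and corrected by TMM factors, and a floor of 3 counts corresponded to 0.194 to 0.615 CPM. Pcgf6 itself was at 3.07 and 2.47 CPM in Villin KO, against 10.8, 12.7 and 9.44 CPM in Villin WT. Its log2 fold change was −1.99 (SE 0.42, adjusted p = 0.022). In AhCre KO it was at 7.20 and 5.90 CPM, against 14.1 and 10.1 CPM in AhCre WT, with a log2 fold change of −0.89 (SE 0.40, adjusted p = 1.0). The replicates of AhCre groups never differed by more than 1.5-fold for any of the 33 genes. The Villin KO libraries were further apart: KO 1 was above KO 2 for 23 of the 33 genes, and 8 of these differed by more than 2-fold. KO 2 was more than 2-fold above KO 1 for 4 genes, Mep1a, Naaladl1, Plb1 and Slc1a1. The crypt stem cell marker Lgr5 was at 4.51 and 5.55 CPM in Villin KO, 15.5, 14.1 and 10.4 CPM in Villin WT, 43.3 and 35.6 CPM in AhCre KO and 34.4 and 30.6 CPM in AhCre WT.

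In the Villin line, 17 of the 33 genes rose in KO crypts and none fell, at an adjusted p under 0.05 in edgeR's quasi-likelihood test. Among all 16250 genes tested, 3.33% were called higher and 2.88% lower. The 17 comprised 3 of 4 carbohydrate hydrolases, 3 of 8 peptidases, 2 of 3 other enzymes and 3 of 7 apical transporters. Also among them were all 3 basolateral transporters, 1 of 4 intermicrovillar adhesion genes and 2 of 4 microvillus core and differentiation genes. The median log2 fold change of the 33 genes was 1.26, and that of all genes tested was −0.18. The summed level of the 33 genes was 56200 and 37910 CPM in Villin KO, against 16300, 17920 and 23720 CPM in Villin WT. For 26 genes both KO libraries lay above all 3 WT libraries, where 14.5% of all genes did so, and for 1 gene, Plb1, both lay below, where 19.8% did. DESeq2 called 25 of the 33 higher, with 7.08% of all genes called higher. With the Villin libraries fitted alone edgeR called 3, Ace, Enpp3 and Slc15a1, with 1.64% of all genes, and limma-voom called 3, Enpp3, Slc15a1 and Slc3a1, with 0.812% of all genes. Without Villin KO 1 no gene of the 33 was called by edgeR, 21 were at an unadjusted p under 0.05, and the median was 0.96; of all genes 0.405% were called and 19.6% were at an unadjusted p under 0.05. Without Villin WT 1 none of the 33 was called either, with 0.888% of all genes called. With any single AhCre library left out, 4 or 5 were called, with 2% to 2.08% of all genes called. In bulk RNA of this kind, a larger share of cells that make a transcript and more transcript per cell cannot be told apart.

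**Figure D1:**
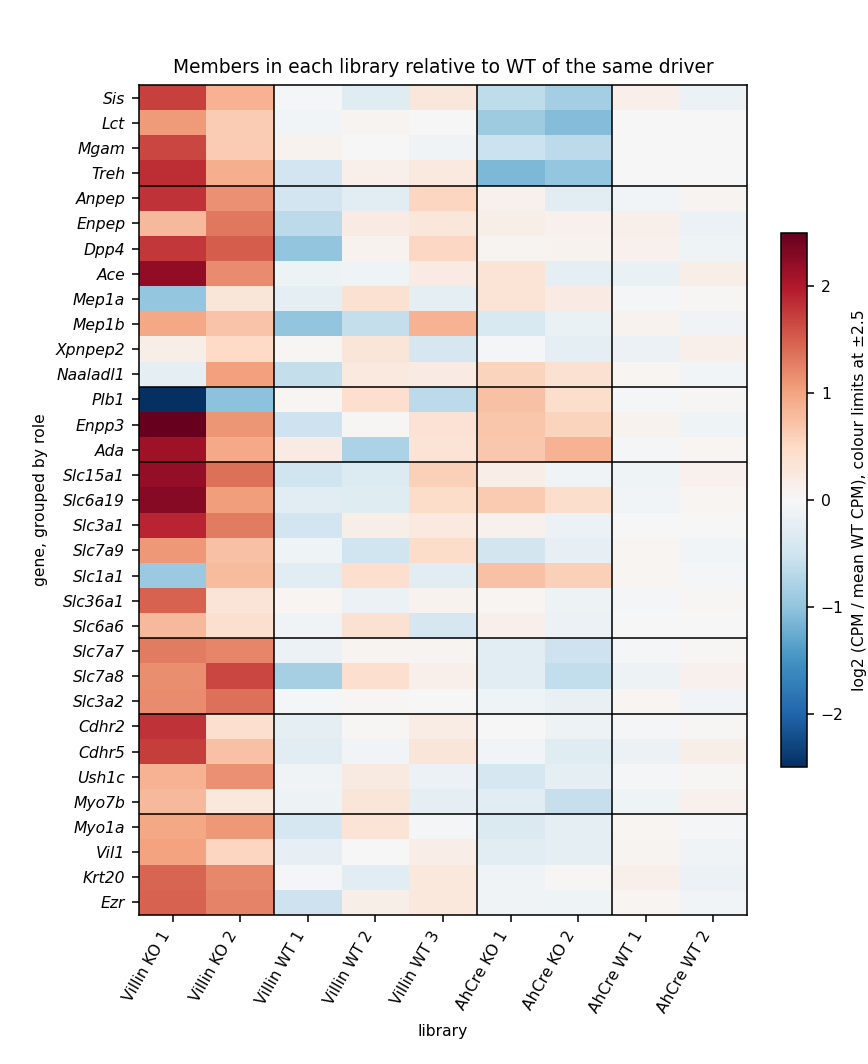
Level of each of the 33 genes in each library, as log2 of CPM over the mean CPM of the WT libraries of the same driver, with genes in rows grouped by role and libraries in columns. Most rows are higher in Villin KO 1 and KO 2 than in Villin WT, while the carbohydrate hydrolases at the top are lower in both AhCre KO libraries than in AhCre WT.

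**Figure D2:**
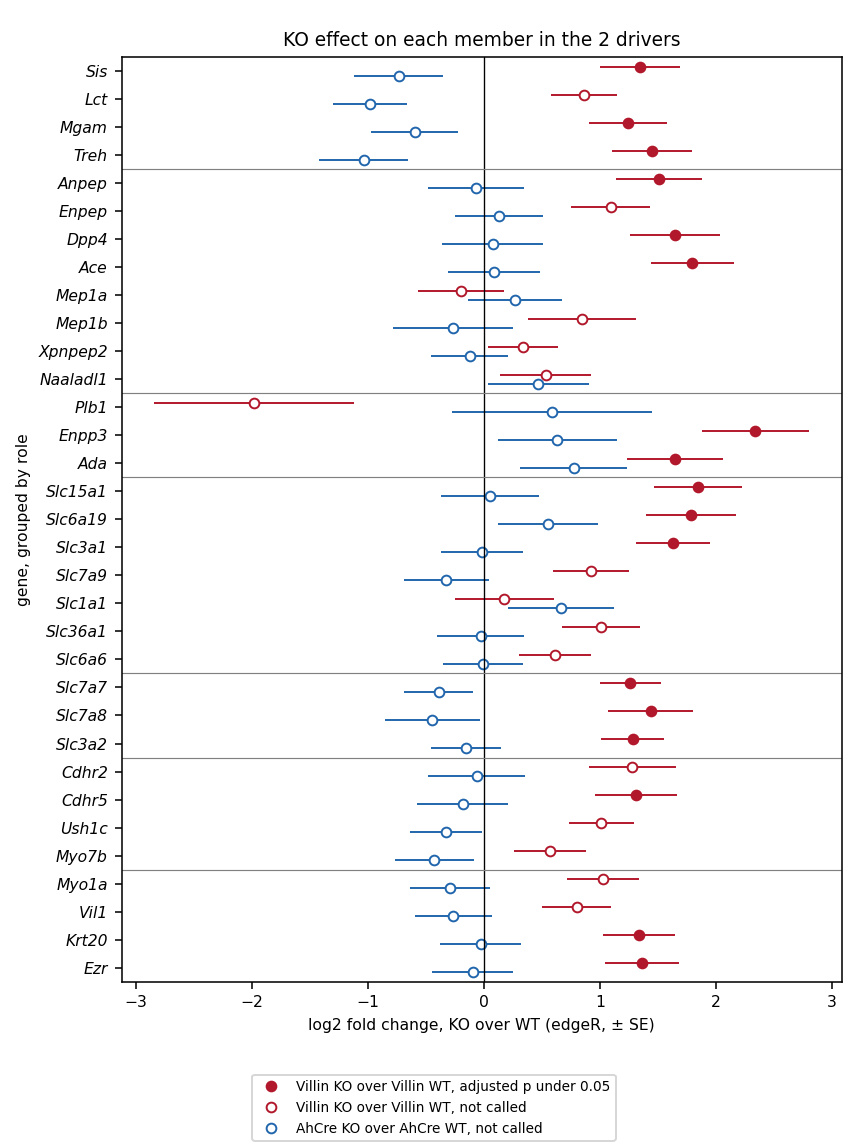
Log2 fold change of KO over WT for each of the 33 genes from edgeR, with 1 SE on either side, for the Villin and the AhCre line. Filled points mark the 17 genes called in the Villin line; no gene was called in the AhCre line in this fit.

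For all 4 carbohydrate hydrolases the KO libraries were above WT in the Villin line and below WT in the AhCre line. Of all genes tested, 5.03% had that pattern. Sis, Lct, Mgam and Treh encode sucrase-isomaltase, lactase, maltase-glucoamylase and trehalase. Promoter sequences of these 4 genes are shown because no other role group had all its members lower in AhCre KO and higher in Villin KO without overlap, apart from the basolateral transporters. RefSeq promoter entries (GRCm38.p6) were found for 29 of the 33 genes, 36 promoters in all. Mep1b, Naaladl1, Slc6a6 and Myo7b had no entry. The 250 bases upstream of the start are printed 5′ to 3′ on the gene's strand, with matches on either strand in capitals. The motifs searched were TTTATG for CDX2, AGATAA for GATA factors and CAAAGTCCA for HNF4A, and no matches of different motifs overlapped in these 4 promoters.
Sis, chr3:72967864-72968113, minus strand: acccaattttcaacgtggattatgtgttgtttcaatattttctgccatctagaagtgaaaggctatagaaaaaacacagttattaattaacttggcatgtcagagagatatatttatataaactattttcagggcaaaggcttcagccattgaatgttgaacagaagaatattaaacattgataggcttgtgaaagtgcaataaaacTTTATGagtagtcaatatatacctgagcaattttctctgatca
Lct, chr1:128328319-128328568, minus strand: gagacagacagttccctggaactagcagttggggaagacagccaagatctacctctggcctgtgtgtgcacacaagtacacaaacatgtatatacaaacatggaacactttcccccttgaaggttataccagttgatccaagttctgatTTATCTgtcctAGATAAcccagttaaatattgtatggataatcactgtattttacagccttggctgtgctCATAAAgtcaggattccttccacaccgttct
Mgam, chr6:40628581-40628830, plus strand: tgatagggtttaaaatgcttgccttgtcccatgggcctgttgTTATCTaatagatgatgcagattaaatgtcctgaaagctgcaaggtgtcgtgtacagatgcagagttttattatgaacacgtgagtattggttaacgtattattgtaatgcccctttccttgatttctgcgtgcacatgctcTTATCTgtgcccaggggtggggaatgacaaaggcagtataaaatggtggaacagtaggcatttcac
Treh, chr9:44672983-44673232, plus strand: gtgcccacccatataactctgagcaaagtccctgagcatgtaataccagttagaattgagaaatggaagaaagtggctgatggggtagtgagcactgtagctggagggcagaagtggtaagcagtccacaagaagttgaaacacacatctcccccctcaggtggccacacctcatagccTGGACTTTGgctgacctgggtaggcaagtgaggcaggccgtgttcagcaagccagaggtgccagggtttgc
Sis held the CDX2 letters, Lct the CDX2 letters and 2 GATA matches, Mgam 2 GATA matches and Treh the HNF4A letters. Among all 32851 promoters of this length, 10.8% held the CDX2 letters, 9.99% the GATA letters and 0.384% the HNF4A letters. Among the 36 promoters of the 33 genes the numbers were 4, 8 and 2. A match is a description of letters, not of a bound site.

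Sis was at 5713 and 3193 CPM in Villin KO, against 1720, 1421 and 2128 CPM in Villin WT. Both KO libraries were above all WT libraries, and the log2 fold change was 1.34 (SE 0.34, adjusted p = 0.0420). In the AhCre line Sis was at 765.5 and 655 CPM in KO, against 1299 and 1066 CPM in WT. Here both KO libraries were below both WT libraries, with a log2 fold change of −0.74 (SE 0.38, adjusted p = 1.0). Mgam was at 2970 and 1448 CPM in Villin KO, against 992, 933 and 873 CPM in Villin WT. KO was higher without overlap, and the log2 fold change was 1.24 (SE 0.34, adjusted p = 0.0479). Its AhCre KO libraries, at 576 and 536 CPM, were below AhCre WT, at 842 and 839 CPM, and the log2 fold change was −0.60 (SE 0.37, adjusted p = 1.0).

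Treh was at 1054 and 549.9 CPM in Villin KO, against 211.5, 322 and 348 CPM in Villin WT. It rose, with a log2 fold change of 1.45 (SE 0.34, adjusted p = 0.0326), with no overlap. In AhCre KO it was at 95.7 and 107 CPM, against 209 and 208 CPM in AhCre WT. Both AhCre KO libraries were lower, with a log2 fold change of −1.04 (SE 0.39, adjusted p = 1.0). Lct, the lactase gene, was at 1015 and 756 CPM in Villin KO, against 468, 508 and 486.5 CPM in Villin WT. These libraries did not overlap, but the log2 fold change of 0.86 (SE 0.28) did not pass the test (adjusted p = 0.0842). In AhCre KO Lct was at 299 and 264 CPM, against 554 and 559.5 CPM in AhCre WT. Both KO libraries were lower, and the log2 fold change of −0.98 (SE 0.32) had the smallest adjusted p of the 33 genes in that line, 0.805.

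**Figure D3:**
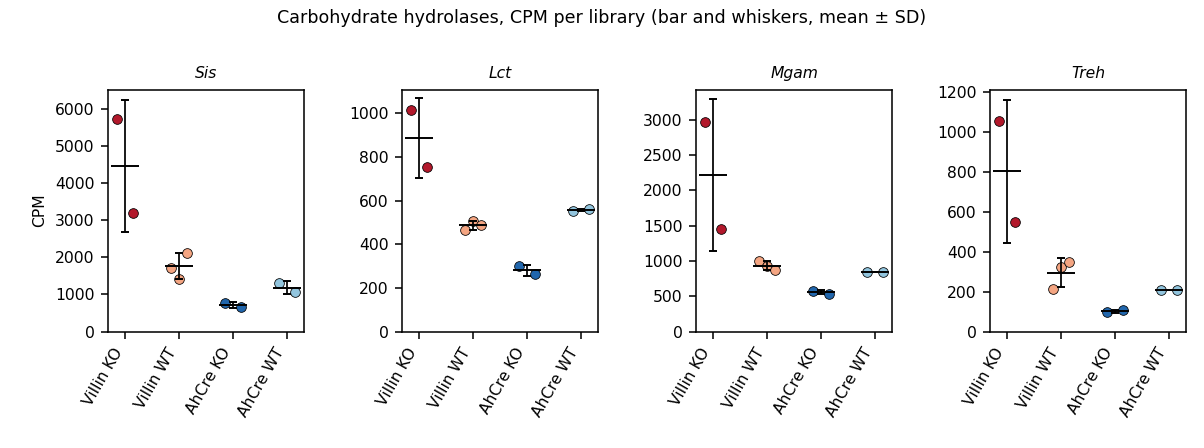
CPM of Sis, Lct, Mgam and Treh in every library on linear axes that start at 0, with the mean and SD of each group. For each gene both Villin KO points lie above the 3 Villin WT points and both AhCre KO points lie below the 2 AhCre WT points.

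Of the 8 brush border peptidases, Anpep, Dpp4 and Ace rose in Villin KO. Anpep encodes aminopeptidase N, which trims neutral residues from peptide ends. It was at 2990 and 1902 CPM in Villin KO, against 619.6, 705 and 1253 CPM in Villin WT. KO was higher without overlap, with a log2 fold change of 1.51 (SE 0.37, adjusted p = 0.0361). Dpp4, dipeptidyl peptidase 4, was at 2310 and 1918 CPM in Villin KO, against 339.7, 718 and 970.1 CPM in Villin WT. It rose, with a log2 fold change of 1.65 (SE 0.39, adjusted p = 0.0328). Ace, a dipeptidyl carboxypeptidase best known for making angiotensin II, was at 1596 and 775 CPM in Villin KO, against 313, 318 and 393 CPM in Villin WT. Its log2 fold change was 1.80 (SE 0.36, adjusted p = 0.0177), again with every KO library above every WT library. Exons of Gm11651, on the opposite strand, cover 5.58% of the exon bases of Ace, but Gm11651 had at most 1.35 CPM in any library. In the AhCre line the KO and WT libraries of these 3 genes overlapped, and their log2 fold changes were −0.07, 0.07 and 0.09.

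The other 5 peptidases did not pass the test in the Villin line. Enpep, aminopeptidase A, was at 1055 and 1498 CPM in Villin KO, against 381, 692 and 725 CPM in Villin WT, without overlap (log2 fold change 1.09, adjusted p = 0.0740). Mep1b, the meprin beta subunit, was at 3098 and 2592 CPM in Villin KO, against 804, 1054 and 2906 CPM in Villin WT. Its spread lay in the WT libraries, since Villin WT 3 was within the KO range (log2 fold change 0.84, adjusted p = 0.270). Mep1a, the meprin alpha subunit that pairs with it, was at 74.8 and 180.5 CPM in Villin KO, against 123, 191 and 125 CPM in Villin WT. The log2 fold change of Mep1a was −0.20 (adjusted p = 0.774). Per kilobase of exon, the Mep1a level was 0.0184 and 0.0529 of the Mep1b level in Villin KO, against 0.116, 0.138 and 0.0328 in Villin WT, so those ranges overlapped. Xpnpep2, aminopeptidase P2, and Naaladl1, a dipeptidase relative of glutamate carboxypeptidase, had log2 fold changes of 0.34 and 0.53 with overlapping libraries, and that of Xpnpep2 turned negative when libraries were scaled by their totals without TMM. In the AhCre line the KO libraries of Mep1a and Naaladl1 were above WT, those of Mep1b were below, and those of Enpep and Xpnpep2 overlapped.

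Of the other 3 enzymes, Enpp3 and Ada rose in Villin KO and Plb1 had its lowest values there. Enpp3 encodes an ectonucleotidase that cleaves extracellular nucleotides. It was at 2632 and 704.5 CPM in Villin KO, against 229.7, 334 and 425 CPM in Villin WT. The KO libraries were 3.74-fold apart, yet both were above all WT libraries, and the log2 fold change was 2.34 (SE 0.46, adjusted p = 0.0177). No other gene of the 33 had a higher log2 fold change in this comparison. In AhCre KO Enpp3 was at 107 and 97.2 CPM, against 70.5 and 61.4 CPM in AhCre WT, also without overlap (log2 fold change 0.63, SE 0.51, adjusted p = 1.0). Ada, adenosine deaminase of purine breakdown, was at 6275 and 2777 CPM in Villin KO, against 1663, 838 and 1830 CPM in Villin WT. It rose, with a log2 fold change of 1.65 (SE 0.41, adjusted p = 0.0390). In AhCre KO Ada was at 160.4 and 185 CPM, against 97.7 and 104 CPM in AhCre WT, with every KO library higher (log2 fold change 0.78, SE 0.46, adjusted p = 1.0).

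Plb1, a brush border phospholipase that splits dietary phospholipids and retinyl esters, was at 1.02 and 45.8 CPM in Villin KO, against 96.2, 125 and 59.1 CPM in Villin WT. Villin KO 1 held 5 counts of it and KO 2 held 297. Both KO libraries were below all WT libraries, and the log2 fold change of −1.98 (SE 0.86) did not pass the test (adjusted p = 0.168). Without the low-count filter, edgeR gave a log2 fold change of −1.95 with an adjusted p of 9.36e-05. The SE in that fit was 0.39 for Plb1 and 0.345 for Mep1b, against 0.86 and 0.465 with the filter. It hardly followed the spread of each gene, so that p does not set Plb1 against its own spread. Without Villin KO 2, which left 1 KO library with 5 counts of Plb1, the log2 fold change was −6.51. DESeq2 (adjusted p = 0.314), limma-voom (0.0907) and edgeR with DESeq2 size factors (0.179) did not call Plb1. In AhCre KO Plb1 was at 208 and 169.7 CPM, against 122 and 128 CPM in AhCre WT, with both KO libraries higher (log2 fold change 0.59, SE 0.86, adjusted p = 1.0). It was the only gene of the 33 that was lower in Villin KO and higher in AhCre KO without overlap, a pattern of 4.65% of all genes tested.

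**Figure D4:**
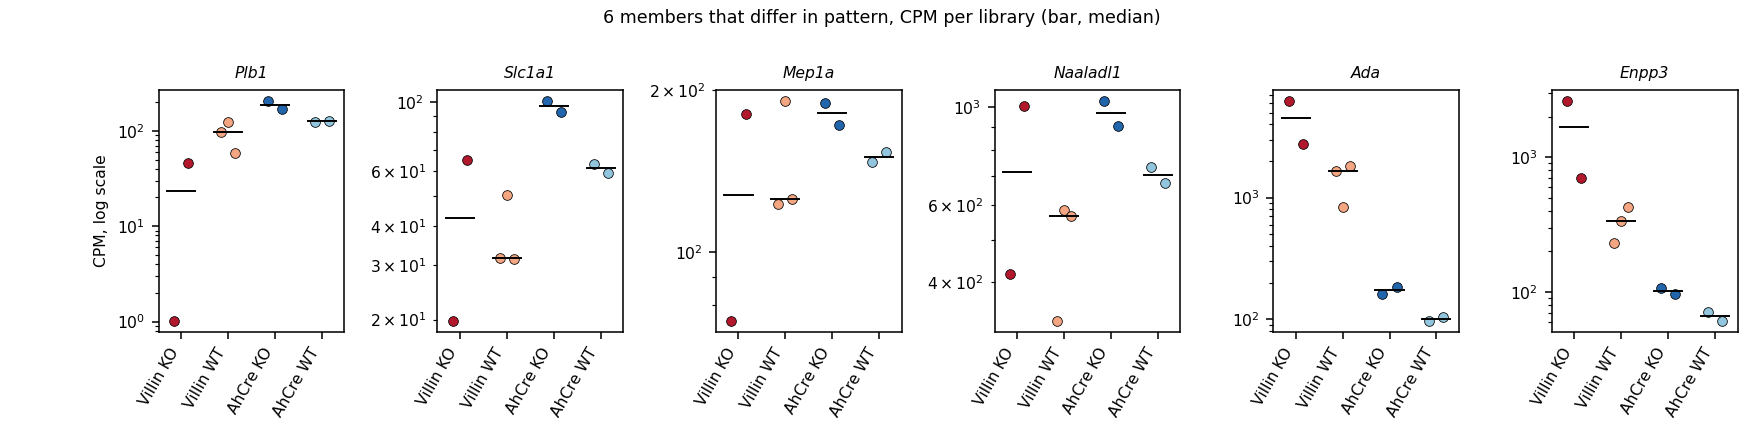
CPM of Plb1, Slc1a1, Mep1a, Naaladl1, Ada and Enpp3 in every library on log axes, each with its own range, with the group median as a bar. Villin KO 1 is the lowest Villin library for Plb1, Slc1a1 and Mep1a, whereas Ada and Enpp3 are higher in KO than in WT in both lines.

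Of the 7 apical transporters, Slc15a1, Slc6a19 and Slc3a1 rose in Villin KO. Slc15a1 encodes the proton-coupled peptide carrier PEPT1. It was at 1171 and 663 CPM in Villin KO, against 181.5, 201 and 385 CPM in Villin WT. The log2 fold change was 1.84 (SE 0.38, adjusted p = 0.0206), with no overlap. Slc6a19, the carrier B0AT1 for neutral amino acids, was at 2494 and 1059 CPM in Villin KO, against 423, 419 and 708.5 CPM in Villin WT. It rose, with a log2 fold change of 1.78 (SE 0.39, adjusted p = 0.0253). In AhCre KO Slc6a19 was at 298 and 256 CPM, against 181 and 196 CPM in AhCre WT, with both KO libraries higher (log2 fold change 0.55, SE 0.43, adjusted p = 1.0). Slc15a1 overlapped in that line, at 160.2 and 135 CPM in AhCre KO and 132 and 153 CPM in AhCre WT.

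Slc3a1 encodes rBAT, the heavy chain of the cystine and dibasic amino acid exchanger, and Slc7a9 its light chain. Slc3a1 was at 618 and 407 CPM in Villin KO, against 118, 183 and 195 CPM in Villin WT, a log2 fold change of 1.63 (SE 0.32, adjusted p = 0.0169). This was the smallest adjusted p of the 33 genes in that comparison. Exons of Prepl on the opposite strand cover 26.5% of the exon bases of Slc3a1, and without strand their reads cannot be told apart. Prepl was at 39.1 and 37.0 CPM in Villin KO, against 15.3, 32.8 and 32.8 CPM in Villin WT. Slc7a9 was at 811 and 637 CPM in Villin KO, against 354, 269 and 522 CPM in Villin WT, with no overlap but no call (log2 fold change 0.92, SE 0.33, adjusted p = 0.103). In AhCre KO Slc7a9 was at 131 and 155 CPM, against 186 and 172 CPM in AhCre WT, with both KO libraries lower (log2 fold change −0.33, adjusted p = 1.0). Per kilobase of exon, the light to heavy chain ratio was 1.11 and 1.33 in Villin KO, against 2.54, 1.25 and 2.27 in Villin WT, and 0.793 and 1.12 in AhCre KO, against 1.21 and 1.12 in AhCre WT.

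The remaining 3 apical carriers were not called in either line in the fit of all 9 libraries. Slc1a1 encodes a glutamate carrier, and was at 19.9 and 64.9 CPM in Villin KO, against 31.4, 50.2 and 31.2 CPM in Villin WT. The KO libraries enclosed the WT range; the log2 fold change was 0.18 (adjusted p = 0.823), and it was negative when libraries were scaled by their totals without TMM. In AhCre KO Slc1a1 was at 101 and 92.5 CPM, against 63.3 and 59.0 CPM in AhCre WT, with both KO libraries higher (log2 fold change 0.66, SE 0.46, adjusted p = 1.0). Exons of 4430402I18Rik on the opposite strand cover 31.9% of the exon bases of Slc1a1, and without strand their reads cannot be told apart. 4430402I18Rik was at 7.38 and 7.1 CPM in Villin KO, against 10.2, 4.23 and 13.1 CPM in Villin WT. In AhCre KO it was at 1.86 and 1.21 CPM, against 3.68 and 2.61 CPM in AhCre WT. Slc36a1, a proton-coupled carrier of small amino acids, was at 108 and 48.9 CPM in Villin KO, against 40.4, 35.4 and 41.2 CPM in Villin WT (adjusted p = 0.0874). Slc6a6, the taurine carrier, was at 285 and 216 CPM in Villin KO, against 155, 213 and 123 CPM in Villin WT (adjusted p = 0.232). Both were higher without overlap in Villin KO and overlapped in the AhCre line.

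All 3 basolateral transporters rose in Villin KO, and their AhCre KO libraries were all below AhCre WT, as were those of 25.1% of all genes. Slc3a2 encodes the heavy chain CD98hc. It was at 809.9 and 927 CPM in Villin KO, against 351, 362 and 358 CPM in Villin WT, a log2 fold change of 1.28 (SE 0.27, adjusted p = 0.0224). In AhCre KO it was at 253 and 239 CPM, against 284 and 262 CPM in AhCre WT (log2 fold change −0.15, adjusted p = 1.0). Slc7a7, the light chain for dibasic amino acids, was at 364 and 343 CPM in Villin KO, against 133, 154 and 155 CPM in Villin WT. The group means were 353 ± 14.6 CPM in KO and 147 ± 12.5 CPM in WT (SD, n = 2 and n = 3), and the log2 fold change was 1.26 (SE 0.27, adjusted p = 0.0223). Neither limma-voom nor edgeR with the Villin libraries alone called it. In AhCre KO Slc7a7 was at 96.0 and 80.8 CPM, against 113 and 119 CPM in AhCre WT (log2 fold change −0.39, adjusted p = 1.0). Oxa1l overlaps 7.0% of the exon bases of Slc7a7 on the opposite strand, and was at 35.9 and 44.4 CPM in Villin KO, against 73.7, 67.7 and 36.0 CPM in Villin WT.

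Slc7a8, the light chain for neutral amino acids, was at 314 and 448 CPM in Villin KO, against 78.9, 189 and 155 CPM in Villin WT. It rose, with a log2 fold change of 1.44 (SE 0.37, adjusted p = 0.0418). In AhCre KO it was at 281 and 222 CPM, against 314 and 369.9 CPM in AhCre WT (log2 fold change −0.44, adjusted p = 1.0). The ratio of the light chains overlapped between KO and WT in both lines and did not overlap between the lines. Per kilobase of exon, the Slc7a8 to Slc7a7 ratio was 0.572 and 0.865 in Villin KO, against 0.393, 0.812 and 0.662 in Villin WT, and 1.94 and 1.82 in AhCre KO, against 1.84 and 2.06 in AhCre WT. The Slc7a7 to Slc3a2 ratio was 0.361 to 0.483 in all 9 libraries.

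Among the intermicrovillar adhesion genes, Cdhr5 rose in Villin KO. Cdhr5 and Cdhr2 encode the protocadherins that join across neighbouring microvillus tips, Ush1c the scaffold harmonin and Myo7b the myosin that carries the complex. Cdhr5 was at 2258 and 1129 CPM in Villin KO, against 563, 648 and 841 CPM in Villin WT, a log2 fold change of 1.31 (SE 0.35, adjusted p = 0.0476). Cdhr2 was at 1948 and 746 CPM in Villin KO, against 467, 567.5 and 632 CPM in Villin WT, without overlap (log2 fold change 1.28, adjusted p = 0.0625). Ush1c was at 509.5 and 610.2 CPM in Villin KO, against 259.7, 324 and 249.5 CPM in Villin WT, also without overlap (log2 fold change 1.01, SE 0.28, adjusted p = 0.0524). Myo7b overlapped, at 457 and 314 CPM in Villin KO and 237, 322 and 221 CPM in Villin WT. In the AhCre line the libraries of Cdhr2 and Cdhr5 overlapped, whereas Ush1c and Myo7b were lower in both KO libraries. Ush1c was at 208 and 234 CPM in AhCre KO, against 272 and 283 CPM in AhCre WT (log2 fold change −0.33, adjusted p = 1.0).

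Of the microvillus core and differentiation genes, Krt20 and Ezr rose in Villin KO. Krt20, an intermediate filament keratin of mature enterocytes, was at 6451 and 5400 CPM in Villin KO, against 2287, 1950 and 2826 CPM in Villin WT. Both KO libraries were higher, and the log2 fold change was 1.33 (SE 0.31, adjusted p = 0.0318). Ezr encodes ezrin, which ties actin to the membrane, and was at 2221 and 1879 CPM in Villin KO, against 555, 881 and 959 CPM in Villin WT (log2 fold change 1.36, SE 0.32, adjusted p = 0.0316). Vil1, the actin bundler villin, was at 2369 and 1712 CPM in Villin KO, against 1021, 1186 and 1310 CPM in Villin WT. Myo1a, the myosin that links actin bundles to the membrane, was at 1658 and 1796 CPM in Villin KO, against 634, 1073 and 833.5 CPM in Villin WT. Neither Vil1 nor Myo1a passed the test, with log2 fold changes of 0.80 (SE 0.30, adjusted p = 0.119) and 1.03 (SE 0.31, adjusted p = 0.0663), although the libraries did not overlap. Krt20 overlapped in the AhCre line, and Ezr, Vil1 and Myo1a were lower in both KO libraries. Vil1 was at 607 and 626.5 CPM in AhCre KO, against 783 and 702 CPM in AhCre WT (log2 fold change −0.27, adjusted p = 1.0). Myo1a was at 529.5 and 576 CPM in AhCre KO, against 700.4 and 654 CPM in AhCre WT (log2 fold change −0.29, adjusted p = 1.0). Ezr was at 396 and 387 CPM in AhCre KO, against 436 and 402 CPM in AhCre WT (log2 fold change −0.10, adjusted p = 1.0).

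In the AhCre line no gene of the 33 was called by edgeR in the fit of all 9 libraries, where 0.00615% of all genes tested were called in either direction. At an unadjusted p under 0.05, Lct and Treh were lower and none was higher, with 3.53% of all genes under that p; DESeq2 called 0, and limma-voom called 4, with 3.19% of all genes called higher and 2.42% lower. The median log2 fold change of the 33 genes was −0.07, and the KO libraries were below both WT libraries for 14 genes and above them for 7. Among all genes, 25.1% were lower and 23.4% higher without overlap. When the 4 AhCre libraries were fitted alone, edgeR called 4 of the 33 genes lower and 5 higher, against 2.82% and 3.62% of all genes tested in that fit. The 4 lower genes were the carbohydrate hydrolases: Lct at −0.97 (SE 0.15, adjusted p = 0.000365), Treh at −1.02 (SE 0.16, adjusted p = 0.000343), Sis at −0.72 (SE 0.16, adjusted p = 0.00882) and Mgam at −0.58 (SE 0.15, adjusted p = 0.0217) on the log2 scale. The 5 higher genes were Ada at 0.80 (adjusted p = 0.00420), Slc1a1 at 0.68 (adjusted p = 0.0138), Enpp3 at 0.65 (adjusted p = 0.0201), Plb1 at 0.61 (adjusted p = 0.0255) and Slc6a19 at 0.57 (adjusted p = 0.0297). The summed level of the 4 carbohydrate hydrolases was 1737 and 1562 CPM in AhCre KO, against 2904 and 2672 CPM in AhCre WT, and 10750 and 5947 CPM in Villin KO, against 3391, 3183 and 3836 CPM in Villin WT.

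Across both lines, 12 genes had KO libraries above WT in the Villin line and below WT in the AhCre line without overlap, where 5.03% of all genes tested did so. They were Sis, Lct, Mgam, Treh, Slc7a9, Slc7a7, Slc7a8, Slc3a2, Ush1c, Myo1a, Vil1 and Ezr. Ada, Enpp3 and Slc6a19 were higher in KO in both lines without overlap, where 3.42% of all genes were. The difference between the KO effects, Villin minus AhCre, was called for none of the 33 genes by edgeR, with 0.0738% of all genes called. At an unadjusted p under 0.05 were 21 of the 33, and 15.9% of all genes. DESeq2 called 13 of the 33 higher in that difference, with 1.95% of all genes called higher, and limma-voom called 4, with 0.782% of all genes. Sis, Lct, Treh and Slc7a7 were the 4 called by limma-voom, and all 4 were among the 13. The mean of both KO effects was called for none of the 33 by edgeR, with 1.17% of all genes called. For the mean, 13 of the 33 and 13.9% of all genes were at an unadjusted p under 0.05. Its smallest adjusted p values were 0.0673 for Enpp3 at a log2 fold change of 1.49, 0.0834 for Slc6a19 at 1.17 and 0.0909 for Ada at 1.21. DESeq2 called 6 of the 33 genes in the mean, with 1.88% of all genes called higher, and limma-voom called 4, with 1.43%. Without Villin KO 2, edgeR called 7 of the 33 genes in the difference, with 2.35% of all genes called, and 5 in the mean, with 4.28%.

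The starting levels in WT crypts differed between the lines for some of these genes. AhCre WT was lower than Villin WT for 3 of the 33 genes and higher for none by edgeR, with 3.53% of all genes called lower and 4.04% higher. Ada averaged 101 ± 4.69 CPM in AhCre WT (SD, n = 2) and 1444 ± 531 CPM in Villin WT (SD, n = 3), a log2 fold change of −3.84 (SE 0.50, adjusted p = 0.00517). Enpp3 averaged 65.9 ± 6.42 CPM in AhCre WT and 329.7 ± 97.8 CPM in Villin WT (log2 fold change −2.32, SE 0.51, adjusted p = 0.0254). Krt20 averaged 853 ± 112 CPM in AhCre WT and 2355 ± 442 CPM in Villin WT (log2 fold change −1.47, SE 0.33, adjusted p = 0.0272). With AhCre WT 1 or AhCre WT 2 left out none of the 3 was called. Of the 16 villus enterocyte markers outside the 33 genes, 9 were called lower in AhCre WT (median −1.56), and of the 12 stem cell genes 3 were called higher, with a positive log2 fold change for all 12. The part of these in the WT difference was not tested. Slc7a8 ran the other way, at 342 ± 39.6 CPM in AhCre WT and 141 ± 56.3 CPM in Villin WT (log2 fold change 1.28, adjusted p = 0.0525).

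Per kilobase of exon, Krt20 had the highest mean level of the 33 genes in all 4 groups, at 3070 CPM per kb in Villin KO, 1220 in Villin WT, 434 in AhCre KO and 443 in AhCre WT. Ada had the next highest mean in both Villin groups, at 2260 CPM per kb in KO and 721 in WT, but ranked 13 in AhCre KO, at 86.4 CPM per kb, and 23 in AhCre WT, at 50.5. Relative to Sis, the per kilobase level of Ada was 4.1 and 3.24 in Villin KO, against 3.6, 2.2 and 3.21 in Villin WT, and 0.781 and 1.06 in AhCre KO, against 0.28 and 0.365 in AhCre WT. The order of the genes by level thus differed between the lines. Naaladl1 ranked 14 in Villin KO, 10 in Villin WT, 2 in AhCre KO and 3 in AhCre WT.

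Other genes of the same pathways were counted from further lists. In the Villin comparison edgeR called 3.33% of all genes higher and 2.88% lower. Of 18 tested hydrolases outside the 33, 6 rose in Villin KO and none fell, with a median log2 fold change of 0.89. They included Ggt1, a gamma-glutamyltransferase, at 1.49 (adjusted p = 0.0159), Nt5e, which makes adenosine from AMP, at 2.10 (adjusted p = 0.0187), and Mme, neprilysin, at 1.53 (adjusted p = 0.0276). Mme was at 1875 and 952 CPM in Villin KO, against 406, 528 and 539 CPM in Villin WT, and at 167 and 132 CPM in AhCre KO, against 267 and 221 CPM in AhCre WT. Of 19 tested transporters of amino acids or nucleosides outside the 33, 3 rose in Villin KO and none fell, and the median was −0.06. The 3 were Slc1a4, a neutral amino acid carrier, and Slc28a1 and Slc28a2, which carry nucleosides rather than amino acids. Of 27 tested microvillus and apical trafficking genes outside the 33, Slc9a3r1, Espn and Plekhg6 rose and Baiap2l2 fell by 1.19 on the log2 scale (adjusted p = 0.0320). No gene of these 3 lists was called in the AhCre line by edgeR.

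Some markers of cell state and of other cell types moved with the Villin comparison, and their part in it was not tested. Of 12 enteroendocrine, 9 Paneth cell and 12 lymphocyte and plasma cell genes none was called in Villin KO. Of 10 goblet cell genes 1 rose. Among all genes tested there, edgeR called 3.33% higher and 2.88% lower. Of 16 villus enterocyte markers outside the 33 genes, 5 rose in Villin KO and none fell (median 0.74). Their summed level was 80600 and 57000 CPM in Villin KO, against 45090, 27260 and 44500 CPM in Villin WT, and 11200 and 11390 CPM in AhCre KO, against 14680 and 12980 CPM in AhCre WT. Of 12 stem cell genes, Slc12a2, Axin2 and Lgr5 fell in Villin KO, and of 16 proliferation genes Mki67 fell. The proliferation sum was 324.7 and 1012 CPM in Villin KO, against 1190, 1391 and 1369 CPM in Villin WT, and 1624 and 1711 CPM in AhCre KO, against 1730 and 1653 CPM in AhCre WT. All 18 tuft cell markers rose in Villin KO, with a summed level of 7496 and 1450 CPM in Villin KO, against 407.3, 393.9 and 506.2 CPM in Villin WT. In AhCre KO the tuft sum was 2014 and 1956 CPM, against 535.9 and 496.8 CPM in AhCre WT; edgeR called none of the 18 there, and all 18 had an unadjusted p under 0.05. Of 10 tested stromal genes 2 rose in Villin KO, and the sum of that list was 166.4 and 168.9 CPM in Villin KO, against 163.9, 25.78 and 19.65 CPM in Villin WT. Of 10 myeloid genes 1 rose, and their sum was 124.2 and 887.1 CPM in Villin KO, against 147.6, 36.82 and 191.7 CPM in Villin WT. Lyz2, which is in both the myeloid and the Paneth cell list, was at 64.3 and 614.5 CPM in Villin KO. In Villin WT it was at 71.9, 2.44 and 48.2 CPM. Where the carbohydrate hydrolases were lower in KO, in the AhCre line, the stromal sum was 65.24 and 63.31 CPM in KO, against 147.2 and 150.4 CPM in WT. The myeloid sum there was 92.41 and 109.6 CPM in KO, against 170.6 and 181.2 CPM in WT. Of it, Lyz2 made up 46.5 and 59.1 CPM in AhCre KO and 104.9 and 112.7 CPM in AhCre WT. The sum of 9 Paneth cell genes was 12230 and 13030 CPM in AhCre KO, against 7435 and 6609 CPM in AhCre WT. None of these 3 sums overlapped between AhCre KO and AhCre WT, and their part in the AhCre values was not tested. Such separation was common: of single genes 25.1% were lower and 23.4% higher in AhCre KO without overlap. The enteroendocrine and the lymphocyte and plasma cell sums were also lower there without overlap. Those of the stem cell and epithelium lists were higher without overlap, and the goblet cell sums overlapped. No gene of these lists was at 0 in every library. Villin KO 1, the library with the highest value for 22 of the 33 genes, also had the highest villus and tuft sums and the lowest stem and proliferation sums of all 9 libraries.

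**Figure D5:**
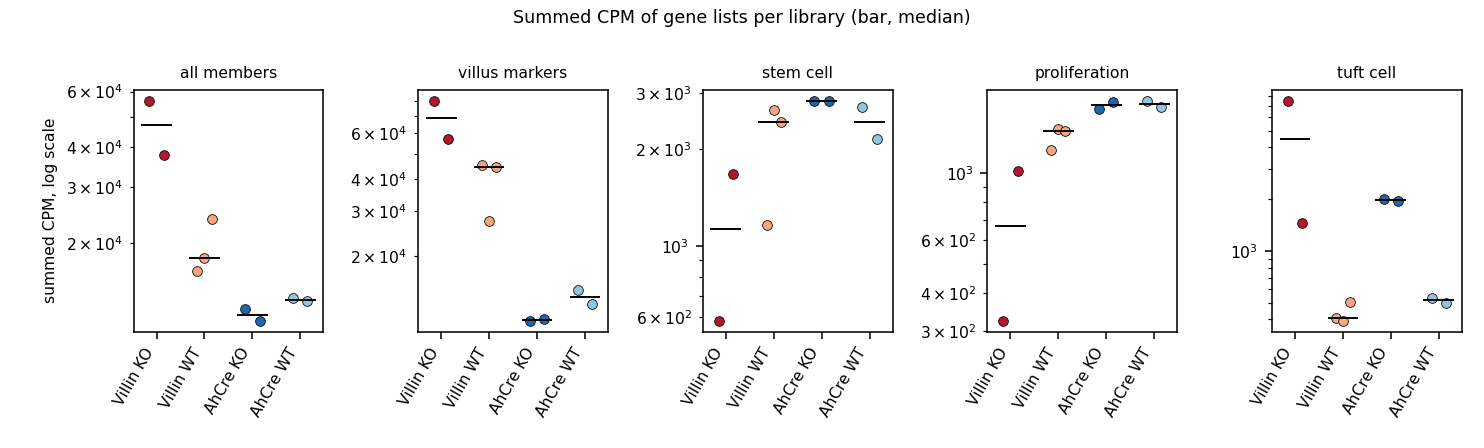
Summed CPM per library on log axes for the 33 genes and for the villus enterocyte, stem cell, proliferation and tuft cell lists, with the group median as a bar. Villin KO lies above Villin WT for the 33 genes, the villus markers and the tuft markers, and below Villin WT for the proliferation genes.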

How the data were processed

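Reads were aligned and counted by the authors; STAR 2.7, featureCounts and DESeq2 1.20 with mm10 and GRCm38 are named in the submitters' processing notes, without settings. The deposited values are whole-number read counts per gene for 9 libraries, 55341 genes each, and 100.0% of the names were found in GENCODE M21, which gave coordinates and exon lengths on GRCm38. CPM used TMM factors (0.6844 to 1.268). The main test was edgeR 4.0.16 in R 4.3.3: a quasi-likelihood fit with 1 mean per group to all 9 libraries, filterByExpr over the 4 groups, and Benjamini-Hochberg adjustment over 16250 genes at 0.05. Fold changes are log2, KO over WT, and an SE is the absolute log2 fold change divided by the square root of F. The fitting script was tested on simulated data. Alternatives were DESeq2 1.42.0, limma-voom (limma 3.58.1) with sample weights, other scaling, no filter, a replicate block, fits of 2 groups and leaving out each library. Replicate libraries differed beyond counting noise, so none was merged. The SE and SD values include the spread among libraries, whereas the floor of 3 counts covers counting error only. All 33 genes are named; other lists give up to 4 called genes each, those with the smallest adjusted p in the Villin line, apart from a gene that is not reported here. The genes, lists and tests were chosen with earlier results of these data known. Promoters come from RefSeq (GRCm38.p6).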

Additional observations from a re-analysis of the deposited data

Results flagged for a closer look

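For 12 genes every Villin KO library was above Villin WT while every AhCre KO library was below AhCre WT, and for Plb1 the directions were opposite to that. The values below are differences of KO effects on the log2 scale, Villin minus AhCre. For the carbohydrate hydrolases they were 2.08 for Sis, 1.85 for Lct, 1.84 for Mgam and 2.49 for Treh, and DESeq2 called all 4 (adjusted p = 0.00298, 0.000932, 0.0117 and 0.000493). For the basolateral transporters they were 1.65 for Slc7a7, 1.88 for Slc7a8 and 1.43 for Slc3a2 (DESeq2 adjusted p = 0.00382, 0.0331 and 0.00983). For Slc7a9 the difference was 1.25 (DESeq2 adjusted p = 0.124). Among the structural genes it was 1.34 for Ush1c, 1.32 for Myo1a, 1.07 for Vil1 and 1.46 for Ezr (DESeq2 adjusted p = 0.0366, 0.0685, 0.125 and 0.0436). For Plb1 it was −2.57 (DESeq2 adjusted p = 0.517). edgeR called none of these 13 differences in the fit of all 9 libraries with the low-count filter, with adjusted p from 0.101 for Treh to 0.323 for Plb1. Without the filter it called those of Treh (adjusted p = 0.00217), Plb1 (0.00161) and Sis (0.0238). In that fit the SE hardly followed the spread of each gene.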

How the results depend on the processing

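Shares in brackets are those of all genes called in the same setting. In the Villin comparison, 17 genes were called higher by edgeR (3.33% of all genes higher), 20 with DESeq2 size factors (4.33%) and 25 by DESeq2 (7.08%), but 3 by limma-voom (0.812%), 3 with the Villin libraries alone (1.64%) and 2 with the replicate block (1.18%). Without the low-count filter 20 were called, 19 higher (1.78%) and 1 lower (1.62%), in a fit whose SE hardly followed the spread of each gene. Leaving out each library gave 0 to 19 calls: 0 without Villin KO 1 (0.405% in either direction) or Villin WT 1 (0.888%), 4 or 5 without any AhCre library (2% to 2.08%), 19 without Villin WT 2 (4.63%) or Villin KO 2 (11%) and 18 without Villin WT 3 (8.66%). All 17 kept a positive log2 fold change in each of these settings. The settings reuse the libraries in which the 17 were called, so a kept sign is not a separate test. The cause of the lost calls was not tested. In the AhCre comparison, 0 calls became 4 with limma-voom (5.61%) and 9 with the AhCre libraries alone (6.43%), and stayed 0 when each library was left out. For the mean of both effects, 0 became 5 without the filter (1.15%), 6 with DESeq2 (2.45%), 4 with limma-voom (1.64%) and 0 to 5 with libraries left out (1 without Villin WT 3, 1.4%, and 5 without Villin KO 2, 4.28%). For the difference of effects, 0 became 3 without the filter (0.726%), 13 with DESeq2 (2.58%), 4 with limma-voom (0.886%) and 0 to 7 with libraries left out (7 without Villin KO 2, 2.35%). For AhCre WT against Villin WT, 3 (7.58%) became 6 without the filter (4.89%), 8 with DESeq2 (15%), 10 with limma-voom (23.8%), 1 with the replicate block (0.0369%) and 0 to 8 with libraries left out. They were 0 without AhCre WT 1 or 2 (0.169% and 0.0466%), 1 without AhCre KO 1 or 2, Villin WT 1 or Villin WT 3 (1.02% to 3.67%), 6 without Villin KO 1 or 2 (12.6% and 13.2%) and 8 without Villin WT 2 (18.8%). Where 1 library of a group remained, it was assumed to vary like the other groups.

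Deviations of same-numbered libraries from their group means correlated at −0.107 in both AhCre pairs and at 0.061 and −0.216 in the Villin pairs. The value is the same in both AhCre pairs by construction, because the deviations within each AhCre group mirror each other. These correlations cannot show whether same-numbered libraries share an animal, litter or day. With the AhCre numbers crossed, chosen after the data were seen, the replicate block called 0 of the 33 genes in the Villin comparison (46 of all genes) and 0 between the WT groups (0 of all genes). Scaling by library totals without TMM, also chosen after the data were seen, gave 10 calls in the Villin comparison, 1 for the mean (1.53% of all genes) and 6 between the WT groups, 3 of them higher. It changed the balance of directions over all genes: 344 higher and 1096 lower in the Villin comparison, against 541 and 468 with TMM and 704 and 388 with DESeq2 size factors, and 1696 higher and 276 lower between the WT groups, against 657 and 574 with TMM. It moved the median of all genes in the Villin comparison to −0.51, against −0.18 with TMM, and the 33 genes lay 1.41 above that median, against 1.44. Between the WT groups it turned the median of the 33 genes to 0.09, against −0.34, with all genes at 0.38, against −0.07. The lowest count of any of the 33 genes was that of Plb1 in Villin KO 1, with 5 of the 7146764 counts of that library.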

Other observations

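Of 22 tested enterocyte transcription factors, 1 was called by edgeR in Villin KO, where 6.21% of all genes were called in either direction. At an unadjusted p under 0.05, 2 of the 22 were higher and 5 lower, with 26.1% of all genes under that p. The called gene was Creb3l3, a regulator of lipid and iron genes. It was at 1406 and 965 CPM in Villin KO, against 512, 453 and 434 CPM in Villin WT (log2 fold change 1.35, adjusted p = 0.0251 in edgeR). In AhCre KO it was at 118 and 140 CPM, against 190 and 186 CPM in AhCre WT (log2 fold change −0.55), so both KO libraries were lower there. The median of the 22 factors was −0.09 in the Villin line and −0.06 in the AhCre line.

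Of all genes tested, 5.03% had KO libraries above WT in the Villin line and below WT in the AhCre line without overlap. Slc2a5, the apical fructose carrier, was among them, as was Sis, whose sucrase activity releases fructose. It was at 1837 and 804 CPM in Villin KO, against 161, 208 and 146 CPM in Villin WT (log2 fold change 2.94, adjusted p = 0.00482). In AhCre KO it was at 47.3 and 50.1 CPM, against 83.5 and 77.9 CPM in AhCre WT. Nt5e, whose product adenosine is the substrate of Ada, was higher in KO in both lines without overlap, as were 3.42% of all genes. It was at 337 and 108 CPM in Villin KO, against 38.1, 70.3 and 47.4 CPM in Villin WT. In AhCre KO it was at 69.5 and 67.2 CPM, against 25.6 and 29.5 CPM in AhCre WT, and was not called. A link between Slc2a5 and Sis or between Nt5e and Ada was not tested. Among all genes tested in the Villin comparison, edgeR called 3.33% higher and 2.88% lower. Of 6 genes of the proximal small intestine, Slc46a1, the folate carrier, rose by 1.59 on the log2 scale in Villin KO and Slc40a1, the iron exporter, fell by 2.16. Neither was called in the AhCre line, where their log2 fold changes were −1.33 for Slc46a1 and −1.48 for Slc40a1. The difference of the KO effects on Slc46a1 was 2.91 (adjusted p = 0.0406 in edgeR), with 0.0738% of all genes called. The mean of both KO effects on Slc40a1 was −1.82 (adjusted p = 0.0409 in edgeR), with 1.17% of all genes called.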
